A study of Mus musculus with 4 samples.

Results

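The AP-1 transcription factors are leucine zipper proteins that bind DNA as dimers, and 9 of their genes were followed here: Fos, Fosb, Fosl1, Fosl2, Jun, Junb, Jund, Atf3 and Jdp2. They were picked by gene symbol, and all 9 were found, once each, among the 55487 genes of the deposited table. Neuronal nuclei of adult mice of genotype WT, taken from whole brain except the olfactory bulb, had been divided by fluorescence-activated sorting into those of excitatory and those of inhibitory neurons, with 2 libraries per group and 1 batch label for all 4. No treatment is named for either group, and the sources used here give neither the sort markers, nor an age beyond adult, nor whether animals were pooled. Values were TPM, transcript abundances per unit of transcript length scaled to the same total in each library, so levels of different genes can be set side by side but the sequencing depth is unknown.

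Fos proteins cannot pair with each other and need a Jun partner, whereas Jun proteins can pair with Jun, Fos or related proteins. In neurons, Fos, Fosb and Junb are known as immediate early genes, transcribed within minutes of synaptic activity, while Jund is known for steady expression. Jdp2 and Atf3 are known mainly as repressors that compete at the same DNA sites.

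Marker genes matched the labels for most of the genes listed. Of 8 excitatory markers, 7 were higher in excitatory nuclei and 1, Slc17a6, the glutamate transporter of thalamus and brainstem, was higher in inhibitory nuclei. Slc17a6 stood at 22.4 and 20.3 TPM in excitatory and at 88.0 and 78.4 TPM in inhibitory libraries. Slc17a7, another excitatory marker, stood at 365 and 367 against 60.2 and 52.2 TPM. A difference in brain region between the groups was not tested apart from cell type. Of 8 inhibitory markers, the 7 tested were higher in inhibitory nuclei. The summed TPM of the markers of other cell types overlapped between groups for astrocytes (108 to 142 in excitatory, 120 to 149 in inhibitory), oligodendrocytes (389 to 472 against 298 to 419) and oligodendrocyte precursors (27.7 to 38.0 against 21.9 to 28.2). Microglial markers stood at 66.0 to 69.2 in excitatory and 77.2 to 89.9 in inhibitory libraries, and endothelial and mural markers at 12.9 to 13.0 in every library, with the defining endothelial gene Cldn5 at 0.903 and 0.227 TPM in excitatory libraries and listed at 0 in both inhibitory ones. Of these other lists, limma called 0 genes, and 1 astrocyte, 1 precursor and 1 microglial gene had an unadjusted p under 0.05. The median log2 fold change, excitatory over inhibitory, was 0.31 for astrocyte, 0.25 for oligodendrocyte and 0.40 for precursor genes tested. It was -0.12 for microglial and 0.15 for endothelial and mural genes, beside -0.07 for all genes tested. Aldoc, the most abundant astrocyte gene listed, stood at 68.6 and 42.2 TPM in excitatory and at 88.3 and 72.3 TPM in inhibitory libraries. The other astrocyte genes had positive log2 fold changes. The part of such cells in the AP-1 values was not tested.

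Sequence upstream of the start site is shown for 5 Fos and Jun genes, and its bearing on the values below was not tested. The 250 bases before each RefSeq start (build GRCm38.p6, the mm10 assembly) were searched on both strands for the cAMP response element TGACGTCA, its core TGACG (contained in it), the AP-1 site TGANTCA, the TATA box TATAAA, the CCAAT box CCAAT, the EGR1 site GCGNGGGCG and the CArG box bound by serum response factor. Starts were listed for 8 of the 9 genes, with 3 starts for Jdp2 and none for Fosl1. Capitals mark the motifs found, and each sequence reads 5′ to 3′ on the gene's own strand.
Fos, chr12:85473770-85473889, plus strand: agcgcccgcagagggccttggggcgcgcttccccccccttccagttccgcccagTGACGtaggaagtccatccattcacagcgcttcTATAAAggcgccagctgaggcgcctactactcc
Fosb, chr7:19310052-19310171, minus strand: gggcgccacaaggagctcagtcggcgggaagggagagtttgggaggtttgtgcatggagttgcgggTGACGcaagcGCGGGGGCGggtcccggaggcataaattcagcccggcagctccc
Fosl2, chr5:32136383-32136412, plus strand: ccggctgcgcGCGGGGGCGgaagggcgcgc
Jun, chr4:95052223-95052342, minus strand: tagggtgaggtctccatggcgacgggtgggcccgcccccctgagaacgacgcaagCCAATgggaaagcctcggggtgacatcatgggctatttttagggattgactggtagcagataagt
Junb, chr8:84978749-84978868, minus strand: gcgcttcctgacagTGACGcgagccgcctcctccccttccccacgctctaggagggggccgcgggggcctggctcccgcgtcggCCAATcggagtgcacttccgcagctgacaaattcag

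The Fosb and Fosl2 windows held the EGR1 site, a motif found in 4.7% of the 32851 promoter windows of the same length. EGR1, the factor this study is concerned with, is itself an activity-induced zinc finger protein. The Fosl2 match lies 71 to 79 bases before the RefSeq start. The outermost GENCODE M21 start of Fosl2 lies 671 bases upstream of the RefSeq start, and the nearest start of its GENCODE transcripts 299 bases from it. All 250 bases of the window are exonic in GENCODE M21, and the match with them. The TGACG core stood in 5 of the members' 10 windows (those of Fos, Fosb, Junb, Atf3 and 1 of 3 of Jdp2), beside 17.8% of all windows, and Fos held it at 2 places, 1 of them outside the stretch shown. Fos was the only member of the 8 with TATAAA (12.4% of all windows), at 28 to 33 bases before the start. Jun and Junb held CCAAT, as did 33.8% of windows. None of the members' windows held an exact TGACGTCA, TGANTCA or CArG box, which were found in 1.55%, 6.75% and 1.47% of all windows. Near matches were not counted, such as tgacatca in the Jun stretch shown, which differs from TGACGTCA by 1 base. The search also says nothing about sites farther away. The GC content was between 58.4% and 72.4% in the windows of 7 members and 47.6% in that of Jund, beside a median of 52.4% over all windows. The ratio of observed to expected CG pairs was 0.48 to 0.99 in those 7 and 0.21 for Jund, beside a median of 0.37. TGACG and GCGNGGGCG contain CG, and the bearing of this ratio on how often they were found was not tested. The RefSeq start of Jund lies 1210 bases upstream of its GENCODE start, so its window is not shown. The RefSeq start of Atf3 lies 34706 bases from the outermost GENCODE start and 7 bases from the nearest start of its GENCODE transcripts.

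Among the 9 genes, Fosl2 was the member that rose in excitatory nuclei beyond the threshold, at 2.29-fold its inhibitory level. Jund and Fos stood at nearly the same mean in both groups, and Jdp2, Jund and Junb were the most abundant members in each group. Fosl1 and Atf3 were at the edge of detection. The test took in each gene that reached 1 TPM in 2 or more libraries, which were 26055 genes and 8 of the 9 members. The test was limma on log2(TPM + 1), and called means a Benjamini-Hochberg adjusted p under 0.05 over all genes tested. One member of 8 (12.5%) was called higher in excitatory nuclei, beside 5.43% of all genes tested, and 0 were called higher in inhibitory nuclei, beside 6.62%, with 12.0% of all genes called in either direction. At an unadjusted p under 0.05, 5 of the 8 stood higher in excitatory nuclei and 0 in inhibitory ones, beside 11.8% and 16.1% of all genes tested. Fosl1 is among the 5 and passed the filter through the excitatory libraries alone, and without it there were 4 of 7. Over all genes, 1414 calls lay toward excitatory and 1725 toward inhibitory nuclei, an order that turned with median ratio scaling (1796 and 1566) and with quantile normalization (1661 and 1570).

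**Figure D1:**
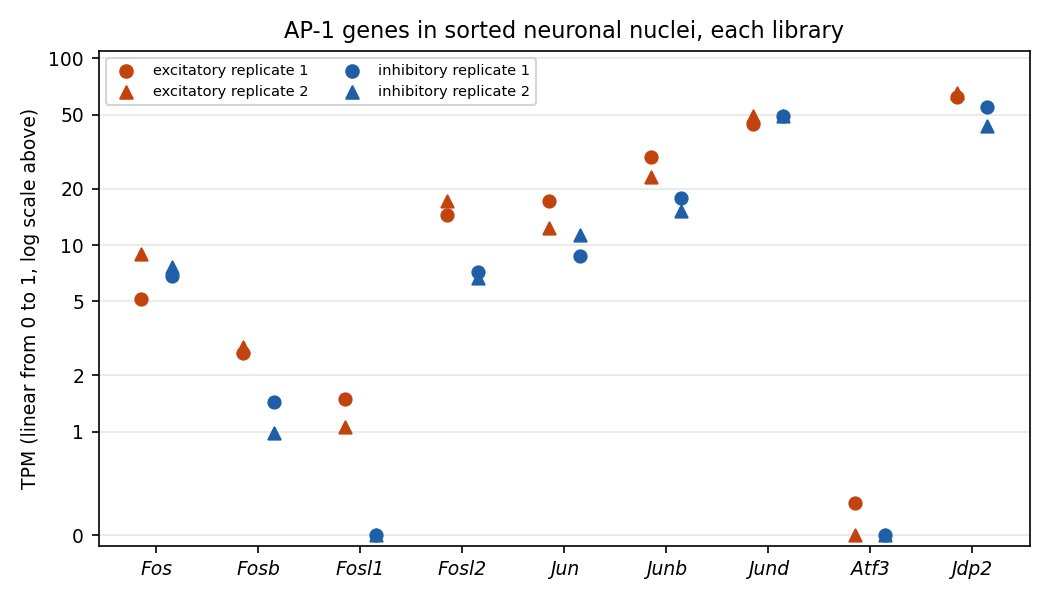
TPM of the 9 AP-1 genes in each of the 4 libraries (linear from 0 to 1 TPM, log scale above; circles are replicate 1 and triangles replicate 2). Jdp2 and Jund lie highest, Fosl2 separates the groups (14.4 and 17.2 against 7.22 and 6.62 TPM), and Fos and Jund overlap between groups.

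Fosl2 (ENSMUSG00000029135, chromosome 5, 32135801 to 32157842, plus strand, mm10) encodes Fra-2, a Fos protein without the strong activation domain of Fos. It stood at 14.4 and 17.2 TPM in the excitatory libraries and at 7.22 and 6.62 TPM in the inhibitory ones. Both excitatory libraries thus lay above both inhibitory ones, and the gap was wider than the distance between libraries of a group. Fewer nuclei with the transcript and less of it in each nucleus cannot be told apart in such libraries. The log2 fold change, excitatory over inhibitory, was 1.08 ± 0.20 (SE, limma adjusted p = 0.0250, n = 2 libraries per group). The call was lost without the filter on low values (adjusted p = 0.0588) and with any 1 of the 4 libraries left out, fits with 1 residual degree of freedom in which limma called 0 genes of the whole table. In those fits the Fosl2 difference was between 0.96 and 1.20 on the log2 scale, with adjusted p between 0.115 and 0.156.

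Fosb gives a full-length activator and, by splicing, the truncated and long-lived DeltaFosB, and the table holds 1 value per gene, so these forms were not told apart. It stood at 2.65 and 2.84 TPM in excitatory and at 1.44 and 0.988 TPM in inhibitory libraries. The groups did not overlap and the ratio of means was 2.26, close to that of Fosl2, but the level was low and the test did not call it. The log2 fold change was 0.77 ± 0.30 (SE, limma adjusted p = 0.158).

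Fosl1, which encodes Fra-1, was listed at 1.50 and 1.06 TPM in excitatory libraries and at 0 in both inhibitory ones. No fold is given against a group listed at 0, and the gene passed the filter through the excitatory libraries alone, so its groups had to differ. Limma did not call it (adjusted p = 0.0611), except with no trend in the variance prior (adjusted p = 0.0305). Fosl1 shares 1163 exonic bases with Ccdc85b, which lies on the other strand and stood at 9.63 to 11.2 TPM. The library kit keeps strand, but no source used here says whether the counting did.

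Fos, the most widely used mark of recently active neurons, stood at 5.12 and 8.995 TPM in excitatory and at 6.79 and 7.64 TPM in inhibitory libraries. The excitatory libraries enclosed the inhibitory ones, and the spread between them was wide for these data. On the log2 scale they differed by 0.71, and 11.3% of the genes tested differed more between the same libraries, where the median difference was 0.22. The log2 fold change of Fos was -0.07 ± 0.30 (SE, limma adjusted p = 0.916), with a 95% interval from -0.81 to 0.67. This interval includes the change seen for Junb and Jdp2 and does not show that Fos was equal in both groups. The sign turned with quantile normalization (0.0376), without excitatory replicate 1 (0.29) and without inhibitory replicate 2 (0.0059).

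**Figure D2:**
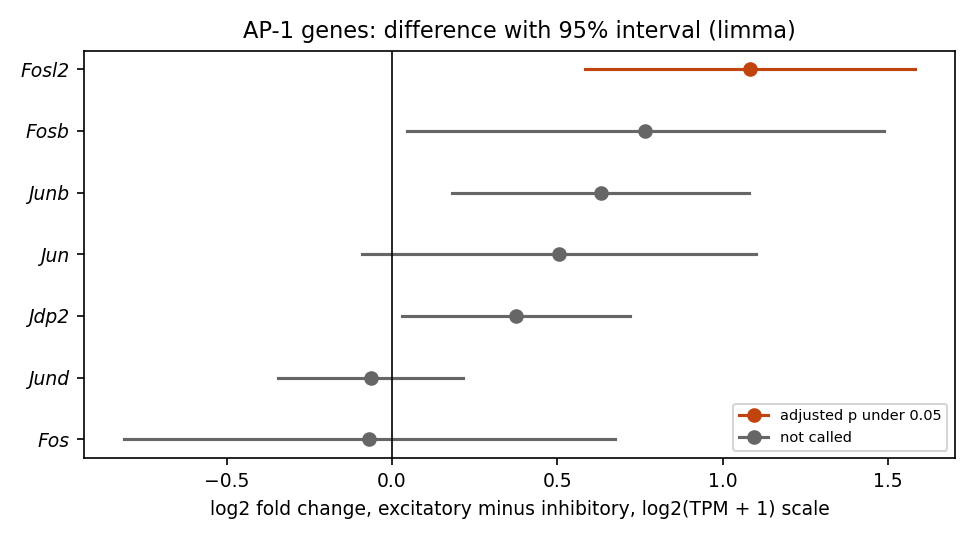
Log2 fold change, excitatory minus inhibitory, on the log2(TPM + 1) scale for the 7 members tested that were above 0 TPM in both groups, with the 95% interval of each from limma, not adjusted for the number of genes. Fosl2 (1.08) is called, and the intervals of Jun, Jund and Fos include 0.

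None of the 3 Jun genes was called. Junb, an activity-induced Jun protein with weaker activation than Jun at many sites, stood at 29.5 and 23.1 TPM in excitatory and at 17.9 and 15.2 TPM in inhibitory libraries. Every excitatory library lay above every inhibitory one, by a mean ratio of 1.59, and limma did not call the difference (log2 fold change 0.63 ± 0.18, adjusted p = 0.0815). With the replicate number as a block the adjusted p was 0.0362. A noncoding Junb transcript overlaps Prdx2 on the other strand by 173 exonic bases, and Prdx2 was more abundant, at 65.8 to 73.7 TPM.

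Jun, the founding member and a target of the JNK kinases, stood at 17.2 and 12.3 TPM in excitatory and at 8.71 and 11.4 TPM in inhibitory libraries. The groups were separated by less than 1 TPM, between excitatory replicate 2 and inhibitory replicate 2, and the spread within each group was several times that gap. The log2 fold change was 0.51 ± 0.24 (SE, limma adjusted p = 0.245). Jun shares 232 exonic bases with the antisense gene Junos, which stood higher than Jun in every library, at 19.4 to 25.7 TPM, and with strand use in counting not given, the values of both are uncertain.

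Jund had the most even level of the family. It stood at 44.6 and 49.2 TPM in excitatory and at 49.1 and 48.95 TPM in inhibitory libraries, with a mean ratio of 0.957. The inhibitory values lay between the excitatory ones, and the log2 fold change was -0.06 ± 0.11 (SE, limma adjusted p = 0.774) with a 95% interval from -0.34 to 0.21. The sign turned with median ratio scaling (0.0099) and without excitatory replicate 1 (0.0043). The antisense gene Gm11175, which overlaps 877 of its exonic bases, was listed at or under 0.385 TPM.

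Jdp2, the Jun dimerization protein and a repressor at AP-1 sites, was the most abundant member by mean in both groups. It stood at 62.0 and 65.5 TPM in excitatory and at 54.8 and 43.6 TPM in inhibitory libraries. The groups did not overlap, although the inhibitory libraries differed from each other by more than inhibitory replicate 1 differed from the nearest excitatory library. The log2 fold change was 0.38 ± 0.14 (SE, limma adjusted p = 0.149). Atf3, a stress-induced repressor, was listed at 0.314 TPM in excitatory replicate 1 and at 0 in the other 3 libraries, and was not tested.

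In excitatory nuclei the order of mean TPM was Jdp2 (63.7), Jund (46.9), Junb (26.3), Fosl2 (15.8), Jun (14.7), Fos (7.06), Fosb (2.75), Fosl1 (1.28) and Atf3 (0.157). Fosl2 and Jun overlapped between their libraries there, and the other neighbours did not. In inhibitory nuclei it was Jdp2 (49.2), Jund (49.0), Junb (16.6), Jun (10.04), Fos (7.21), Fosl2 (6.92) and Fosb (1.22), with Fosl1 and Atf3 listed at 0. Jdp2 and Jund overlapped in inhibitory nuclei, as did Fos and Fosl2, so Fosl2 moved from beside Jun to beside Fos in this order. Among all genes tested, Jdp2 stood between the 80.3 and 87.9 percentiles of TPM in the 4 libraries and Fosb between the 4.55 and 20.6 percentiles.

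Of the 8 members tested, 6 had both excitatory libraries above both inhibitory ones, beside 23.0% of all genes tested, 2 overlapped, and 0 had both inhibitory libraries above, beside 33.3%. In either direction the groups were apart for 56.2% of all genes tested. Without Fosl1, which passed the filter through the excitatory libraries alone, 5 of 7 lay above, and the median log2 fold change was 0.51, beside -0.07 for all genes tested. With 2 libraries against 2, an exact two-sided permutation test of any single gene cannot go below p = 0.333. Nothing in the labels ties the 2 replicates of a group to different animals, and the p-values cover no more than the spread between these libraries, which may be technical.

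Shares within the Fos group are given as a description of the 4 libraries. Fosl2 made up 60.8% and 57.2% of the summed TPM of the 4 Fos genes in excitatory libraries and 46.7% and 43.4% in inhibitory ones. Fos made up 21.6% and 29.9% in excitatory and 43.9% and 50.1% in inhibitory libraries. The groups did not overlap for either share, and the level of Fos itself was 7.06 against 7.21 TPM on average in excitatory and inhibitory libraries. Fosl2 exceeded Fos 2.82 and 1.92 times in excitatory libraries, while in inhibitory libraries the ratio was 1.06 and 0.867. Whichever of the 2 genes led in inhibitory nuclei therefore depended on the replicate. These shares were not tested, and the TPM values of the 2 groups did not overlap for 56.2% of all genes tested.

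**Figure D3:**
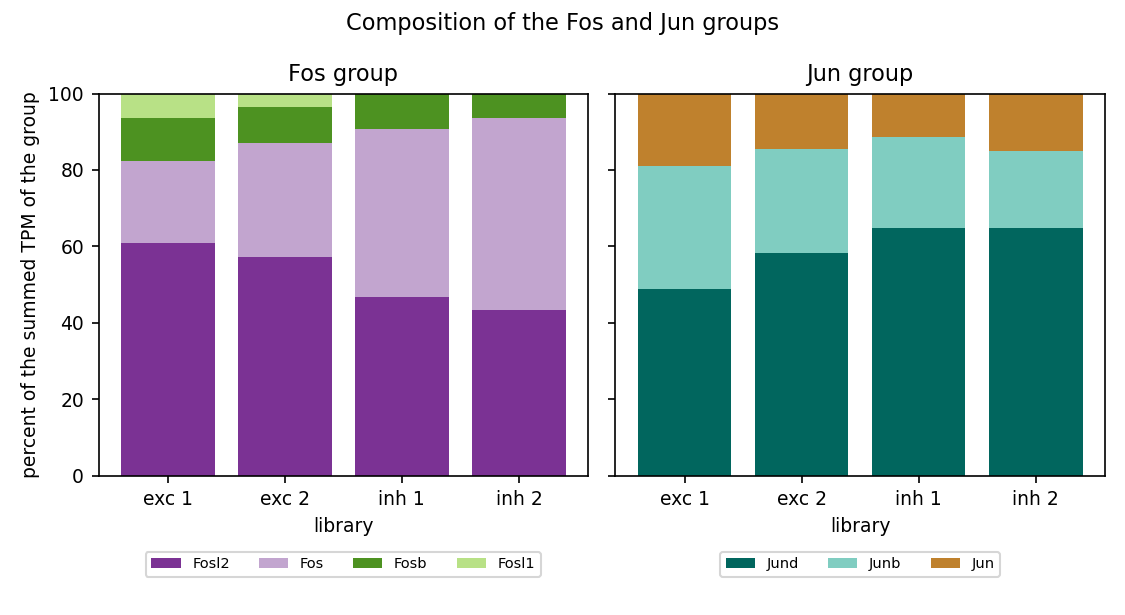
Percent of the summed TPM of the Fos group (left) and the Jun group (right) taken by each gene in each library, with exc for excitatory and inh for inhibitory replicates. Fosl2 takes the largest share of the Fos group in both excitatory libraries (60.8% and 57.2%), and Jund the largest share of the Jun group in all 4.

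Within the Jun group, Jund made up 48.9% and 58.1% in excitatory libraries and 64.8% in each inhibitory one. Junb made up 32.3% and 27.4% in excitatory and 23.7% and 20.1% in inhibitory libraries. Jund thus led in every library, by 1.51 and 2.13 times Junb in excitatory and by 2.74 and 3.22 times Junb in inhibitory nuclei. Jun group transcripts outnumbered Fos group transcripts in all libraries, by 3.86 and 2.81 times in excitatory and by 4.91 and 4.95 times in inhibitory ones. The 9 genes summed to 177 and 180 TPM in excitatory and to 146 and 134 TPM in inhibitory libraries.

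The members also differed in gene structure, which bears on a nuclear RNA measurement because introns are still present there. Jun and Jund have a single exon in GENCODE M21, so all of their span is exonic. The exonic share was 69.5% for Fos, 84.9% for Fosb and 43.9% for Fosl2, and 5.3% for Jdp2 and 4.5% for Atf3, which span 40852 and 47744 bases. No source used here says how intron reads were treated, and their part in the levels was not tested. Fos and Jdp2 are neighbours on chromosome 12, 121753 bases apart and on the same strand, and Jdp2 exceeded Fos in every library. Junb and Jund both lie on chromosome 8.

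Over the 4 libraries, the genes with log2(TPM + 1) values nearest to each member were read by Euclidean distance, as a description. The search took in the genes tested, without those whose symbol is a predicted gene or clone name. Nearest to Fosl2 was Fam129b (15.0 and 19.3 against 7.996 and 6.74 TPM, distance 0.21), followed by the neurotensin receptor gene Ntsr2 at 0.25. Nearest to Fosb was the integrin gene Itgb3 (2.85 and 2.84 against 1.40 and 1.01 TPM, distance 0.08), followed by the precursor cell proteoglycan gene Cspg4 at 0.26. Jdp2 lay beside Ifrd1 (distance 0.12) and the zinc finger gene Klf9 (0.16), and Jund beside Usp54 and Bbs4 (both 0.06). Jun was nearest to Zfp189 (0.13) and Wipi1 (0.27), Junb to Cpne4 (0.21) and Ramp1 (0.22), Fos to Bicra (0.15) and B9d2 (0.17), and Fosl1 to Robo4 (0.35) and Traj35 (0.37). No gene of the AP-1 list was among these neighbours. The distance depends on level and few neighbours were kept, so members at different levels could hardly appear. Whether the members vary together was not tested.

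Among genes of related bZIP proteins, not all of them shown to pair with Fos or Jun, those called were higher in inhibitory nuclei. Of 21 listed, 16 were tested, of which 0 rose toward excitatory and 5 toward inhibitory nuclei (31.2%), beside 5.43% and 6.62% of all genes tested. At an unadjusted p under 0.05 by limma there were 0 and 8, beside 11.8% and 16.1% of all genes. Their median log2 fold change was -0.36. Maf, a large Maf protein of interneurons born in the medial ganglionic eminence, stood at 9.44 and 8.76 TPM in excitatory and at 32.8 and 37.2 TPM in inhibitory libraries (log2 fold change -1.83 ± 0.16, adjusted p = 0.00319). Bach1, a repressor that pairs with small Maf proteins, stood at 4.48 and 4.68 against 10.8 and 11.1 TPM (-1.10, adjusted p = 0.0298). Called members named after their values were seen were Bach2 (-0.51) and the stress factor Ddit3 (-0.56, adjusted p = 0.0499, by a narrow margin). Without the filter on low values Maf kept its call while Bach1, Bach2 and Ddit3 lost theirs, and Bach2 and Ddit3 also lost their calls with median ratio scaling and with no variance trend. Ddit3 lost its call with quantile normalization and a pseudocount of 0.1 too. Batf, a lymphoid AP-1 partner of Jun, was listed at 0 in all 4 libraries.

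**Figure D4:**
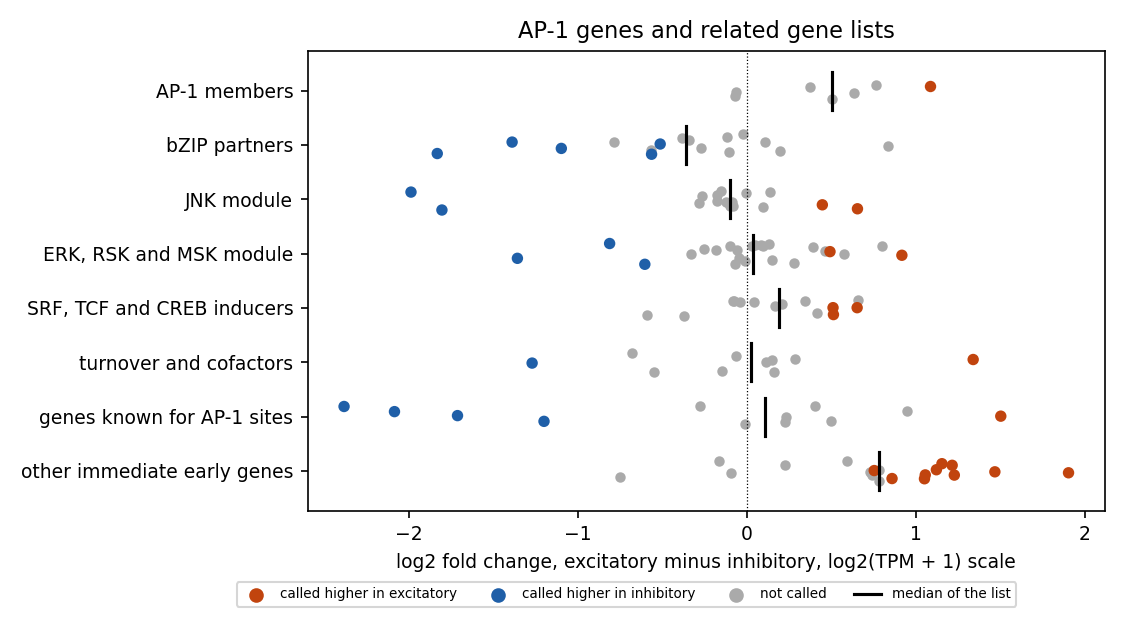
Log2 fold change, excitatory minus inhibitory, of each tested gene above 0 TPM in both groups in the AP-1 list and in 7 lists of related genes, with coloured points for genes called by limma and a black bar for the median of each list. The AP-1 members have 1 called gene, toward excitatory. The 5 called genes of the list labelled bZIP partners lie toward inhibitory and the 10 called immediate early genes toward excitatory.

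Kinases that act on Jun and Fos went both ways. In the JNK module, 2 of 17 genes rose toward excitatory and 2 toward inhibitory nuclei (11.8% each, beside 5.43% and 6.62% of all genes tested). Mapk10, the neuronal JNK, stood at 262 and 264 TPM in excitatory and at 190 and 196 TPM in inhibitory libraries (log2 fold change 0.45, limma adjusted p = 0.0309), and the upstream kinase gene Map3k5 at 53.2 and 51.3 against 30.8 and 34.9 TPM (0.65). Map3k1, an upstream kinase of the same cascade, stood at 6.15 and 5.13 against 26.1 and 24.5 TPM (-1.99, adjusted p = 0.00385). Dusp10, a phosphatase that switches JNK off, stood at 3.72 and 2.67 against 16.4 and 11.1 TPM (-1.80). The median of the list was -0.10. The calls of Mapk10, Map3k5 and Dusp10 were lost without the filter, and those of Mapk10 and Map3k5 with no variance trend.

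In the ERK, RSK and MSK module, which relays growth factor and calcium signals to Fos, 2 of 24 genes rose toward excitatory and 3 toward inhibitory nuclei (8.33% and 12.5%, beside 5.43% and 6.62% of all genes tested), with a median of 0.04. Dusp6, the ERK phosphatase induced by ERK itself, stood at 25.2 and 29.3 TPM in excitatory and at 15.2 and 12.7 TPM in inhibitory libraries (log2 fold change 0.92, limma adjusted p = 0.0248). The scaffold gene Ksr1 stood at 48.6 and 51.1 against 33.6 and 36.8 TPM (0.49). Toward inhibitory nuclei, Rps6ka1, which encodes an RSK kinase, stood at 8.48 and 9.44 against 22.2 and 27.0 TPM (-1.36, adjusted p = 0.00932). Rps6ka5, the MSK1 kinase gene, stood at 25.7 and 27.8 against 48.5 and 46.8 TPM (-0.81), and Araf had a difference of -0.60. Dusp6 and Ksr1 lost their calls without the filter and, with Araf, with no variance trend, and Ksr1 also with a pseudocount of 0.1.

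Of 14 genes for the factors that switch on Fos through serum response and cAMP response elements, 3 rose toward excitatory (21.4%) and 0 toward inhibitory nuclei, beside 5.43% and 6.62% of all genes tested. At an unadjusted p under 0.05 by limma there were 6 and 1, beside 11.8% and 16.1% of all genes. They were the serum response factor coactivators Mrtfa (82.3 and 100.0 against 51.5 and 63.9 TPM) and Mrtfb (132 and 155 against 94.7 and 106 TPM), and the CREB coactivator Crtc1 (62.8 and 70.6 against 43.9 and 49.0 TPM). Their log2 fold changes were 0.65, 0.51 and 0.51, with adjusted p of 0.0471, 0.0497 and 0.0486, all just under the threshold, and all 3 calls were lost without the filter, with a pseudocount of 0.1 and with no variance trend. Among 10 tested genes for turnover and cofactors, Fbxw7, a ubiquitin ligase subunit that marks Jun for destruction, stood at 227 and 199 TPM in excitatory and at 93.8 and 74.3 TPM in inhibitory libraries (1.34 ± 0.14, adjusted p = 0.00482). Nfatc2, a calcium-regulated partner of Fos and Jun on composite sites, stood at 5.86 and 8.43 against 15.7 and 21.5 TPM (-1.27, adjusted p = 0.0305). These 2 were the calls of that list, 1 in each direction (10% each, beside 5.43% and 6.62% of all genes tested). Nfatc2 lost its call in the fits without the filter and without a variance trend.

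Genes known for AP-1 sites in their control regions were called in both directions. Of 12 tested, 1 rose toward excitatory (8.33%) and 4 toward inhibitory nuclei (33.3%), beside 5.43% and 6.62% of all genes tested. Camk2a, a kinase gene reported as a DeltaFosB target, stood at 356 and 432 TPM in excitatory and at 121 and 157 TPM in inhibitory libraries (log2 fold change 1.50, limma adjusted p = 0.00493). The opioid peptide genes Penk (36.9 and 28.3 against 181 and 166 TPM) and Pdyn (3.88 and 2.69 against 18.7 and 15.4 TPM) stood far higher in inhibitory nuclei, at -2.38 and -2.08. Scg2, a granule protein gene, had a difference of -1.20, and Nts, named after its values were seen, -1.71, a call lost without the filter. These peptide genes are also markers of neuron types that were sorted as inhibitory. The effect of type was not tested apart from AP-1, for these genes or for Camk2a.

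Many of the other immediate early genes were called higher in excitatory nuclei. Of 19 tested, 10 rose toward excitatory (52.6%) and 0 toward inhibitory nuclei, beside 5.43% and 6.62% of all genes tested. At an unadjusted p under 0.05 by limma there were 13 and 1, beside 11.8% and 16.1% of all genes, and the median of the list was 0.78. Nr4a2, an orphan nuclear receptor that also marks deep cortical and claustral neurons, stood at 20.5 and 21.6 TPM in excitatory and at 5.67 and 4.21 TPM in inhibitory libraries (log2 fold change 1.90, adjusted p = 0.00568). Homer1, a scaffold gene with an activity-induced short form, stood at 412 and 461 against 192 and 179 TPM (1.23, adjusted p = 0.00315). Nptx2, a secreted synaptic pentraxin, stood at 37.7 and 31.5 against 12.7 and 11.0 TPM (1.47, adjusted p = 0.00589). Whether Fos, at -0.07, differed from these genes in its response to cell type was not tested. Over the 7 related lists, 34 of 112 distinct genes tested were called, beside 12.0% of all genes. Without the filter on low values 15 were, while calls over all genes went from 3139 to 1406.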

How the data were processed

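Per the labels' protocols, ribosomal RNA was removed from the nuclear RNA before directional, paired-end sequencing. The authors deposited 1 table of TPM values, with length and depth divided out. Per the submitters' processing notes, fastp 0.23.4, HISAT2 2.2.1, Bowtie2 2.3.5, StringTie 2.2.1 and build mm10 were used, with roles, annotation and strand use in counting not given in the sources used here. Columns were matched to samples by the names in the sample descriptions. Each summed to between 999833 and 999891, so depth is unknown and no counting interval was computed.

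Values were taken as log2(TPM + 1) for genes that reached 1 TPM in 2 or more of the 4 libraries. They were compared by limma 3.58.1 in R 4.3.3 (moderated test, prior variance following a trend, prior worth 4.04 and residual 2 degrees of freedom), two-sided, with Benjamini-Hochberg adjustment over 26055 genes. The script was checked on simulated data. Gene positions and overlaps came from GENCODE M21, and promoter sequences from RefSeq (GRCm38.p6), matched by symbol for 8 of 9 members. Figures used matplotlib 3.10.9.

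The members and lists were chosen with earlier results of these data known. Named were all members, up to 3 called genes of each list and direction with the smallest p, and markers. Also named were the 2 genes nearest to each tested member, with predicted gene and clone names left out. The marker lists and 7 related lists were written from general knowledge and described by counts and medians. The values of 1 gene of the bZIP list are not reported here. Alternatives were a pseudocount of 0.1, no filter, a 5 TPM filter, median ratio scaling, quantile normalization, no variance trend, a replicate block, and each library left out.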

Additional observations from a re-analysis of the deposited data

How the results depend on the processing

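The AP-1 members called numbered 1, and 0 without the filter, 2 with no variance trend (Fosl2 and Fosl1) and 2 with the replicate number as a block (Fosl2 and Junb). With each library left out in turn, 0 members, 0 genes of the related lists and 0 genes in all were called (5311 to 5812 genes at an unadjusted p under 0.05), against 34 and 3139 in the full fit. Without the filter the related lists gave 15 calls and all genes together 1406, and with no variance trend the related lists gave 22. The fits without 1 library had 1 residual degree of freedom. The replicate block gave 4328 calls in all, but same-numbered libraries share only a number in the labels, and their deviations from the group means correlated at 0.0957 across 26055 genes.

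Fosl2, Jun, Junb and Jdp2 kept their direction under all alternatives run. Fosb kept it in each fit that tested it, as it did not pass the 5 TPM filter. Fosl1 did not pass that filter either, and its direction was fixed by the 0 values in the inhibitory libraries. Of 27 called genes followed from the related lists, 0 changed direction, and calls were lost for 14 without the filter, 11 with no variance trend, 5 with a pseudocount of 0.1, 2 with median ratio scaling, 1 with quantile normalization and 27 with any library left out. Fos ranged from -0.42 to 0.29 with a library left out (0.0059 without inhibitory replicate 2) and stood at 0.0376 with quantile normalization. Jund ranged from -0.13 to 0.0043 with a library left out and stood at 0.0099 with median ratio scaling. The cause of these changes was not tested. A pseudocount of 0.1 moved Fosl1 from 1.18 to 3.77, as its inhibitory libraries are listed at 0. TPM keeps no depth, so how far depth limits Fosb, Fosl1 and Atf3 is unknown.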
